A study of Mus musculus with 2 samples.

Results

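Sox1, Sox2, Sox3 and Sox21 are the SoxB genes described here, 4 of the 19608 genes with a molecule in either library, chosen by name and not by their values. The cells, Sox1-GFP+ by flow cytometry, came from mouse tail (1 library) and mouse brain (1 library), and the BD Rhapsody system counted their RNA molecules cell by cell. Per the study's methods, the mice carry a GFP knock-in at Sox1 and the tail was postnatal and the brain adult. Tissue, age and library differ together and cannot be told apart, and neither library has a biological replicate in the study. A cell was kept if it had over 200 but under 4000 genes and if mitochondrial genes gave less than 40% of its molecules, which left 1964 tail cells (median 1282.5 molecules) and 7988 brain cells (median 696 molecules). The files hold 29 cell barcodes in common, 18 of them among kept cells. With 1 library per tissue there is no replicate and no test, and the 95% intervals below cover counting error only.

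SoxB proteins bind DNA through the HMG box that they share with all Sox factors. Sox1, Sox2 and Sox3, the SoxB1 group, act mainly as activators and hold neural progenitors in an undifferentiated state, often together with POU factors. Sox21 and Sox14, the SoxB2 group, act mainly as repressors and are known for counteracting SoxB1 proteins as neurons form. Sox2 is also a general marker of neural stem cells and astroglia, while Sox1 is an early and specific marker of the neural plate.

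The genes lie apart in the genome. On GRCm38, counted from 1, Sox1 (ENSMUSG00000096014) lies on chromosome 8 from 12395295 to 12400126 and Sox2 (ENSMUSG00000074637) on chromosome 3 from 34650405 to 34652461, both on the plus strand. Sox3 (ENSMUSG00000045179) lies on chromosome X from 60891366 to 60893430 and Sox21 (ENSMUSG00000061517) on chromosome 14 from 118233232 to 118237030, both on the minus strand. Each is annotated in GENCODE vM21 as a protein-coding gene with 1 exon. Sox21 shares exonic sequence with Gm4675, a noncoding RNA on the opposite strand with 17 tail and 10 brain molecules of its own. Sox1 and Sox2 lie within the spans of the same-strand noncoding genes Sox1ot and Sox2ot, with no exon in common, and these had 0 molecules in kept cells. Transcripts of the GFP reporter were not analysed here, and whether any are counted as Sox1 is not given in the sources used here.

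The windows around 3 of the start sites are shown because the report turns on which of these genes were found in the same cells. They run from 250 bases before to 50 bases after the RefSeq start (GRCm38.p6), 5′ to 3′ on the gene's own strand: chr8:12395269-12395568 (plus) for Sox1, chr3:34649745-34650044 (plus) for Sox2 and chr14:118236981-118237280 (minus) for Sox21. Sox3 had no entry. The RefSeq starts of Sox1 and Sox2 differ from the GENCODE starts given above. The whole Sox2 window lies before the GENCODE start, and most of the Sox1 window lies after it. Capitals mark matches, on either strand, to the octamer ATGCAAAT, to the SOX-type cores ACAATG and ACAAAG, to CCAAT, to the GC box GGGCGG and to TATAAA; no match overlapped another.
Sox1: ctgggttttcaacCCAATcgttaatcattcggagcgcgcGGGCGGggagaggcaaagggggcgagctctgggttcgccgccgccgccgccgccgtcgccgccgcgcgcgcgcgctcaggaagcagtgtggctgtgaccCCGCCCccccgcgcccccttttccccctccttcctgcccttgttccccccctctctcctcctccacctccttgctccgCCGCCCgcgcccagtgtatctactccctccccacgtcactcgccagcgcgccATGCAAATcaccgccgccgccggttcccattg
Sox2: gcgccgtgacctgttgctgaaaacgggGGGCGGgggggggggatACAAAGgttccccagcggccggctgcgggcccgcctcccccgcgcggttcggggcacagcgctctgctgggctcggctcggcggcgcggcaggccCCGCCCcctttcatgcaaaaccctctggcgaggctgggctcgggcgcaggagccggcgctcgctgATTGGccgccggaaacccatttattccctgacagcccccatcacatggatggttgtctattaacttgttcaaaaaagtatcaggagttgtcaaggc
Sox21: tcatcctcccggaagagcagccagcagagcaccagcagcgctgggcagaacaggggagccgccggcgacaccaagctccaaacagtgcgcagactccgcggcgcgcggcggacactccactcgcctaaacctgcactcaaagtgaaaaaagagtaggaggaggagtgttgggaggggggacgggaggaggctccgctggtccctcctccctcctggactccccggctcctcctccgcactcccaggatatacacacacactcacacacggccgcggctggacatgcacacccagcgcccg

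The Sox1 window held the octamer, bound by POU factors, once, at 19 bases after the RefSeq start, a CCAAT box and 3 GC boxes. The Sox2 window held 1 SOX-type core (ACAAAG), 1 CCAAT box and 2 GC boxes. The Sox21 window held none of the 6 motifs. Of all 32851 windows of this length, 1.74% held the octamer, 12.6% ACAATG, 18.7% ACAAAG, 37.4% CCAAT, 35.7% GGGCGG and 13.6% TATAAA. All 3 windows were rich in G and C, at 70.7%, 66.3% and 65.7% against a median of 52.7%. Such a match is a string of letters and no evidence of binding.

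The level of each gene was first compared between the libraries. Sox1 and Sox2 were lower in tail than in brain cells, Sox3 was about 4-fold higher in tail cells, and Sox21 did not differ beyond counting error. Sox1 had 236 molecules in the tail (83.8 CPM, a level scaled to the total molecules of the cells counted; 73.4 to 95.2) and 750 in the brain (117 CPM, 109 to 125). Its tail over brain ratio was 0.718 (0.617 to 0.832). Sox2, the stem cell and astroglial factor, had 968 and 3034 molecules, at 344 CPM in the tail and 472 in the brain, a ratio of 0.728 (0.676 to 0.782). Sox3, the X-linked member of the group, had 114 and 64 molecules, at 40.5 CPM in the tail and 9.96 in the brain, a ratio of 4.06 (2.97 to 5.61). Sox21, the repressor, had 217 and 448 molecules, at 77.0 and 69.7 CPM, a ratio of 1.1 (0.935 to 1.30). Sox14, the other SoxB2 gene, had 39 molecules in 26 tail cells and the brain library held 0, so that its tail level was at least 29.6-fold higher if 3 molecules are allowed for the brain library, and the lower bound of its exact interval was 23.0.

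Of the 4 genes, 1 lay wholly beyond 2-fold higher in the tail (Sox3), as did 13.2% of the 11347 genes with at least 50 molecules. None lay beyond 2-fold higher in the brain, as did 9.07% of those genes. The median gene was 0.28 higher in the tail on the log2 scale, so relative to it Sox1 and Sox2 stood lower in the tail, while the Sox21 interval held the median gene, at 0.857 on the median-ratio scale (0.725 to 1.01). With TMM scaling the Sox21 ratio was 0.846 (0.716 to 0.997), on the other side of 1. The 249 tail cells with markers of fibroblasts, keratinocytes, macrophages or endothelium held few SoxB molecules. Without them and the 43 such brain cells the Sox1 ratio was 0.893 (0.768 to 1.04) and no longer excluded 1, the Sox2 ratio was 0.910 (0.846 to 0.979) and the Sox21 ratio was 1.35 (1.15 to 1.60). The Sox3 ratio lay between 3.11 and 5.50 under all 9 alternatives.

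**Figure D1:**
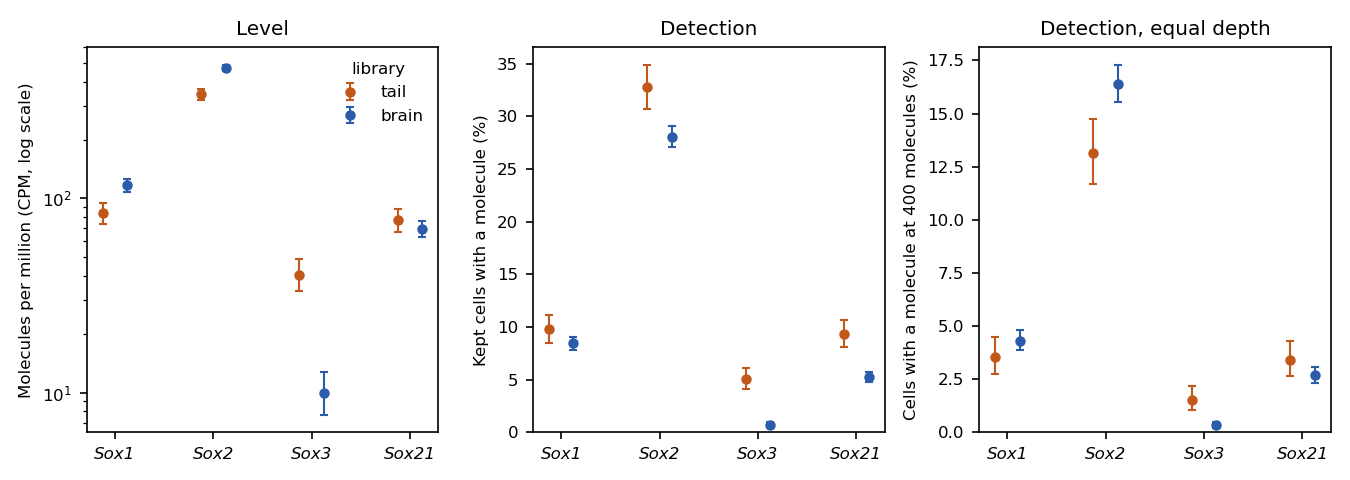
Level and detection of the 4 SoxB genes in the tail (orange) and brain (blue) libraries, with 95% counting intervals: molecules as CPM on a log axis (left), percent of kept cells with a molecule (middle) and percent of cells with a molecule once each cell is thinned to 400 molecules (right). Sox3 stood at 40.5 CPM in the tail and 9.96 in the brain, the widest gap of the 4 genes.

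Most sorted cells had no SoxB molecule, the reporter gene included. Sox1 was found in 192 tail cells (9.78%, 8.50 to 11.2) and 675 brain cells (8.45%, 7.85 to 9.08). Sox2 was found in 643 tail cells (32.7%) and 2240 brain cells (28.0%), Sox21 in 183 (9.32%) and 417 (5.22%), and Sox3 in 99 (5.04%) and 60 (0.751%). At least 1 of the 4 was found in 45.4% of the tail and 36.5% of the brain cells, and all 4 in 0 tail cells, which allows a share of up to 0.153%, and in 3 brain cells. A single molecule was the rule. Of the cells with Sox1, 158 of 192 in the tail and 609 of 675 in the brain held exactly 1, and the most in any cell was 4 and 3. Sox2 reached 7 molecules in a tail cell and 6 in a brain cell, and 3 or more in 71 and 145 cells.

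Detection of Sox1 rose with depth, so shares were also taken from a random draw of 400 molecules per cell, which left out 19 tail cells (0.967%) and 718 brain cells (8.99%). Among brain cells the share with Sox1 went from 6.59% of the 4252 cells with at least 400 and under 800 molecules to 23.1% of the 429 cells with 1600 or more, while its level was 119 and 136 CPM. Among tail cells the same steps gave 6.33% of 300 cells and 11.7% of 591 cells, at 101 and 70.4 CPM. Tail Sox2 did not rise throughout, at 36.7% of the 1054 cells with at least 800 and under 1600 molecules and 32.7% of those with 1600 or more. After this thinning, the share with Sox1 was 3.55% in the tail (69 of 1945) and 4.32% in the brain (314 of 7270). Thinned shares were 13.2% and 16.4% for Sox2, 1.54% and 0.344% for Sox3, and 3.39% and 2.70% for Sox21. The order of the libraries for Sox1, Sox2 and Sox3 was thus that of the CPM, and the unthinned order for Sox1 and Sox2, higher in the tail, was not.

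Cells with non-neural markers were taken as the background, and whether they lack these genes was not tested. In the tail, 168 cells had fibroblast markers (at least 3 markers with 2 or more molecules each; median 1998.5 molecules per cell). Sox1 was found in 1 of them, Sox2 in 4, Sox3 in 2 and Sox21 in 1, at 2.56, 10.2, 5.12 and 2.56 CPM. Another 71 tail cells had keratinocyte markers (median 2178 molecules), with Sox1 in 1, Sox2 and Sox3 in 0 and Sox21 in 4 of them. Among 41 brain cells with macrophage or microglia markers (median 633 molecules), Sox2 was found in 2 and the others in 0, at a depth where 0 cells allows a share of up to 7.32%. For Sox1 and Sox2 the shares over all tail cells lay above these shares with intervals apart, although the fibroblast and keratinocyte marker cells were the deeper ones. For Sox21 the share in keratinocyte marker cells (5.63%, 1.56 to 13.8) and for Sox3 the share in fibroblast marker cells (1.19%, 0.144 to 4.23) overlapped those over all tail cells. These shares were not thinned. As CPM, Sox21 in keratinocyte marker cells was at 0.293-fold the level of the other tail cells (0.0792 to 0.763). Sox3 in fibroblast marker cells was at 0.111-fold (0.0133 to 0.410). In the brain the shares with Sox3 (0.751%) and Sox21 (5.22%) lie under what 0 of 41 cells allows, and that of Sox1 (8.45%) lies under the exact 95% limit of 8.60%, so none of these can be set above background there from these cells. These cells were sorted as Sox1-GFP+ like the rest, and sorting purity was not tested.

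Levels were then compared across cells marked by at least 2 molecules of Stmn2 (a microtubule regulator of young neurons), Slc1a3 (the astroglial glutamate transporter), Igfbp5 (an insulin-like growth factor binding protein, on in most tail cells), Tmem212 (of multiciliated cells) or Top2a (the topoisomerase of dividing cells). A mark is a rule on 1 gene and not a cell type, and the groups share cells: 387 of the 408 Slc1a3-marked tail cells were also Igfbp5-marked. In the tail, Sox1 stood highest in Stmn2-marked cells and Sox2 and Sox21 in Slc1a3- and Igfbp5-marked cells. In the brain, Sox1 and Sox2 stood above the rest in both Stmn2- and Top2a-marked cells.

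Sox1, the reporter gene, was at 360 CPM (264 to 480) in the 67 Stmn2-marked tail cells, with a molecule in 31 of them. It was at 90.6 CPM in the 574 tail cells with none of the marks, 76.7 in Slc1a3-marked, 67.3 in Igfbp5-marked and 59.9 in Tmem212-marked cells, whose intervals overlapped. It was lowest in the 103 Top2a-marked tail cells, at 7.37 CPM (0.892 to 26.6) from 2 molecules, although these were deep cells (median 2278 molecules). Against all other tail cells, Sox1 was 5.10-fold as high in Stmn2-marked cells (3.61 to 7.07) and 0.625-fold in Igfbp5-marked cells (0.480 to 0.813).

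Brain Sox1 spanned a narrower range. It was at 199 CPM (154 to 253) in 198 Top2a-marked cells, 190 (152 to 234) in 560 Stmn2-marked, 152 in 2233 unmarked, 140 in 419 Igfbp5-marked and 106 in 53 Tmem212-marked cells, and these neighbours overlapped. It was lowest, at 88.4 CPM (79.6 to 98.0), in the 4891 Slc1a3-marked cells, a level that overlapped only that of the Tmem212-marked cells. Against other brain cells the ratio was 1.77 (1.36 to 2.29) for Top2a, 1.71 (1.35 to 2.14) for Stmn2 and 0.529 (0.457 to 0.612) for Slc1a3.

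Sox2 was at 585 CPM (524 to 651) in Slc1a3-marked tail cells, 479 (447 to 514) in Igfbp5-marked, 374 in Tmem212-marked, 329 in Stmn2-marked, 254 in Top2a-marked and 128 (105 to 154) in unmarked tail cells. The Igfbp5-marked ratio to other tail cells was 3.25 (2.75 to 3.86), and 2.38 (2.01 to 2.83) once cells with non-neural markers were left out. In cells marked by Igfbp5 alone it was 1.51 (1.32 to 1.71). The Slc1a3-marked ratio was 2.08 (1.81 to 2.38), 1.64 (1.43 to 1.88) without the non-neural cells, and 0.939 (0.428 to 1.79) in the few tail cells marked by Slc1a3 alone. In the brain, Sox2 was at 745 CPM (655 to 844) in Top2a-marked cells, 668 in Stmn2-marked, 611 in Igfbp5-marked, 572 in Tmem212-marked, 467 in Slc1a3-marked and 393 (361 to 427) in unmarked cells. Its ratio to other brain cells was 1.63 (1.42 to 1.86) for Top2a and 1.46 (1.29 to 1.64) for Stmn2.

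Sox21 stood higher in Slc1a3-marked than in other cells in both libraries. It was at 118 CPM (92.0 to 150) in Slc1a3-marked and 99.7 (85.1 to 116) in Igfbp5-marked tail cells, and at 23.5 in Stmn2-marked and 25.8 in Top2a-marked tail cells. In brain cells it was at 83.6 CPM (75.0 to 92.9) with Slc1a3 and 28.4 (15.1 to 48.5) with Stmn2. The Slc1a3-marked ratio to other cells was 1.78 (1.32 to 2.39) in the tail and 1.85 (1.49 to 2.33) in the brain. The Igfbp5-marked ratio was 2.25 (1.64 to 3.15) in the tail and 1.15 (0.802 to 1.60) in the brain. The Stmn2-marked ratio was 0.295 (0.0604 to 0.874) and 0.389 (0.206 to 0.673).

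Sox3 was found in few cells with the neuronal mark. The 67 Stmn2-marked tail cells held 1 molecule (7.83 CPM, 0.198 to 43.6), and the 560 such brain cells held 0, which allows a share of up to 0.536%. In the other tail groups it lay between 38.3 and 59.9 CPM, and all these intervals overlapped, that of the Stmn2-marked cells included. Its Stmn2-marked ratio to other tail cells was 0.186 (0.00468 to 1.06). In the brain it was at 39.2 CPM (20.9 to 67.0) in Top2a-marked cells, 4.68-fold the level of other brain cells (2.34 to 8.74), and at 11.4 CPM in Slc1a3-marked cells. The tail level was thus above the brain level in Slc1a3-marked cells (4.27-fold, 2.58 to 6.97), in Igfbp5-marked cells (3.36-fold, 1.47 to 9.47) and in unmarked cells (6.15-fold, 2.88 to 14.6), while in Top2a-marked cells it was 1.22-fold (0.522 to 2.86).

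**Figure D2:**
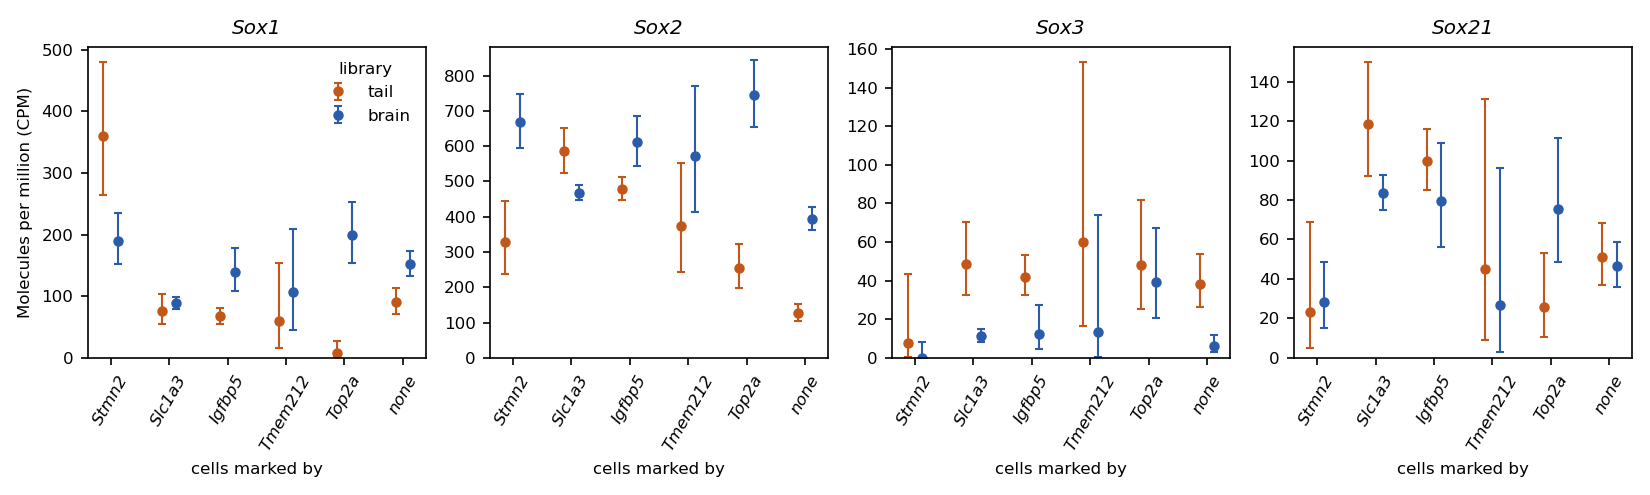
Molecules as CPM of Sox1, Sox2, Sox3 and Sox21 in cells with at least 2 molecules of each marker gene, and in cells marked by none, in the tail (orange) and brain (blue) libraries. Points are summed levels and bars 95% counting intervals. Sox1 stood at 360 CPM in Stmn2-marked and 7.37 in Top2a-marked tail cells, against 190 and 199 in the brain.

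Read the other way, 31 of the 192 Sox1-detected tail cells were Stmn2-marked (16.1%, 11.2 to 22.1), where 3.41% of all tail cells were. Another 99 were Igfbp5-marked (51.6%, against 64.2% of all tail cells) and 62 carried no mark (32.3%). Of the 675 Sox1-detected brain cells, 333 were Slc1a3-marked (49.3%, against 61.2% of all brain cells), 78 Stmn2-marked (11.6%, against 7.01%) and 53 Top2a-marked (7.85%, against 2.48%). Of the 26 tail cells with Sox14, 6 were Stmn2-marked and 20 carried no mark, and none was marked by the other 4 genes.

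The next question was whether SoxB genes were found in the same cells. Before thinning, Sox2 was found more often in cells with Sox21 than in cells without it in both libraries. Sox21 was about as frequent with Sox1 as without. Among kept cells, Sox2 was found in 53.0% of the 183 tail cells with Sox21 (45.5 to 60.4) and 30.7% of those without (28.5 to 32.9). In the brain the shares were 43.2% of 417 (38.4 to 48.1) and 27.2% (26.2 to 28.2). Sox2 was also found in 56.7% of the 60 brain cells with Sox3 (43.2 to 69.4) and 27.8% of those without, and in 42.4% of the 99 tail cells with Sox3 (32.5 to 52.8) against 32.2%. For Sox1 and Sox2 the shares were 38.0% and 32.2% in the tail, with overlapping intervals, and 35.3% (31.7 to 39.0) and 27.4% (26.4 to 28.4) in the brain. Sox21 was found in 9.38% of tail cells with Sox1 and 9.31% of those without, and in 5.48% and 5.20% of brain cells.

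Cells with any of these molecules were deeper, at a median of 924 against 686 molecules for Sox21 in the brain and 1351 against 1275 in the tail, so the pairs were counted again after thinning. Of thinned brain cells with Sox21, 25.0% held Sox2 (49 of 196; 19.1 to 31.7), against 16.2% of the rest (15.3 to 17.1), and within Slc1a3-marked brain cells alone 24.8% (37 of 149; 18.1 to 32.6) against 16.5%. In the tail the thinned shares were 18.2% (12 of 66; 9.76 to 29.6) and 13.0%, with overlapping intervals. Within Slc1a3-marked tail cells the order was the other way, at 18.2% (4 of 22) and 20.8%. Within Igfbp5-marked tail cells the shares were 20.8% (11 of 53) and 17.4%, and the intervals overlapped in both. The brain pair of Sox1 and Sox2 was not set apart once thinned, at 15.6% (49 of 314; 11.8 to 20.1) and 16.4%, nor was the tail pair, at 13.0% (9 of 69) and 13.2%. Sox3 and Sox2 were at 28.0% (7 of 25; 12.1 to 49.4) and 16.4% in thinned brain cells, a difference not detectable at this depth. In thinned tail cells the order was the other way, at 3.33% (1 of 30; 0.0844 to 17.2) and 13.3%, and the intervals overlapped.

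**Figure D3:**
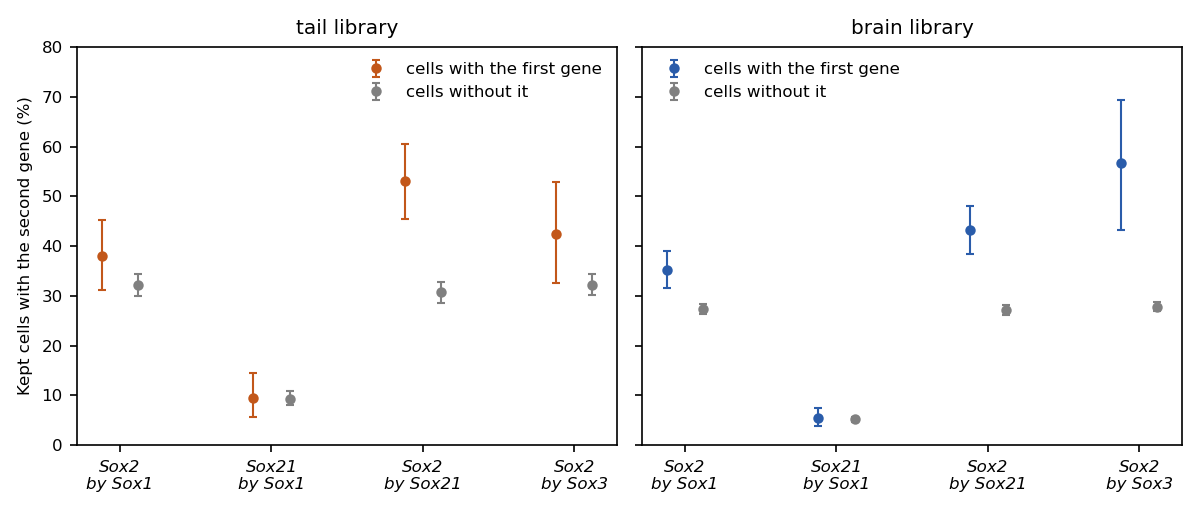
Percent of kept cells with a second SoxB gene among cells with the first gene (colour) and without it (grey), for 4 pairs in the tail and brain libraries, with 95% counting intervals. Sox2 by Sox21 stood at 53.0% against 30.7% in the tail and 43.2% against 27.2% in the brain, while Sox21 by Sox1 was at 9.38% against 9.31% and 5.48% against 5.20%.

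Cells with at least 1 Sox1 molecule were then compared with all other cells of their library, gene by gene. In the tail, the measured genes of a joint list of cerebrospinal fluid-contacting and V2 interneuron genes stood out. Fibroblast collagens were almost absent. Of 8235 tail genes with at least 50 molecules, 140 (1.7%) were higher with the whole interval beyond 2-fold, and 124 (1.51%) lower. Of these 140, 136 were found in at least 10 Sox1-detected cells. In the brain, 93 of 9810 genes (0.948%) were higher and 32 (0.326%) lower. Replication and mitosis genes led there, and at equal depth the mitosis gene Ube2c no longer stood apart, as described below.

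All 7 measured genes of the list of cerebrospinal fluid-contacting and V2 interneuron genes were higher beyond 2-fold in Sox1-detected tail cells, with a median ratio of 7.32 against 1.02 over all genes. The list holds 12 genes, and the others had under 50 molecules. Among these, Foxn4 had 3 molecules in Sox1-detected and 23 in other tail cells, Lhx3 0 and 5, Myo3b 2 and 3, and Pkd1l2 35 and 8. Pkd2l1, the channel that marks cerebrospinal fluid-contacting neurons, was at 1046 CPM in Sox1-detected and 65.8 CPM in other tail cells (15.9-fold, 13.1 to 19.3), and was found in 52 of 192 and 41 of 1772 cells. The factors Gata2 (8.31-fold), Gata3 (4.41-fold), Tal1 (8.36-fold) and Tal2 (7.16-fold), the bundling protein Espn (7.32-fold) and the vesicular GABA transporter Slc32a1 (4.52-fold) went with it. Without cells with non-neural markers, 5 of 6 measured genes of the list lay beyond 2-fold. The list was chosen with earlier results of these data known, so these counts are a description and no independent support.

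The 10 genes that led in the tail by the lower bound of their ratio were Clic5, Chga, Pkd2l1, Rprm, Grap2, Cacna2d3, St6galnac5, Snhg11, Scg2 and Zcchc12. Clic5, a chloride intracellular channel protein, was at 221 against 8.32 CPM (26.6-fold, 16.1 to 45.8). Chga, the secretory granule protein chromogranin A, was at 698 against 39.6 CPM (17.6-fold, 13.8 to 22.6), and its relative Scg2 at 354 against 39.6 CPM (8.94-fold, 6.73 to 11.9). Cacna2d3, a calcium channel subunit, was 14.2-fold as high and St6galnac5, a sialyltransferase, 9.17-fold.

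Of the 7 measured GABAergic neuroblast genes, 3 were higher beyond 2-fold in Sox1-detected tail cells: Gad1 (7.35-fold) and Gad2 (7.57-fold), which make GABA, and Dcx (3.87-fold), a microtubule protein of young neurons. The 14 measured SoxB partners and progenitor genes had a median ratio of 0.921. Of these 14, 6 had a ratio above 1. Among the 6 were the POU factors Pou3f2 and Pou3f3, partners of SoxB1 proteins, at 2.34-fold (1.77 to 3.05) and 2.27-fold (1.37 to 3.63). Others stood lower, such as the glial lipid carrier Fabp7 at 0.588-fold (0.485 to 0.707) and Rfx4 at 0.546-fold (0.307 to 0.904). Sox11, a SoxC factor of young neurons, was at 1775 against 617 CPM (2.88-fold, 2.60 to 3.18).

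Other groups stood lower in these cells. Of 6 measured excitatory or dorsal neuron genes, 3 were lower beyond 2-fold, with a median ratio of 0.202: Robo3, an axon guidance receptor, had 2 molecules in Sox1-detected and 273 in other tail cells, Nhlh1 had 1 and 104, and Lmx1b 0 and 87. All 6 fibroblast markers were lower, Col1a1 at 30.7 against 5024 CPM, and Col1a1, Col1a2, Col3a1, Col6a1 and Col6a2 led the lower genes. Without the 249 cells with non-neural markers, 19 genes were lower in place of 124, and 105 higher in place of 140. Of 8 cycling genes 1 was lower, Birc5 of the chromosomal passenger complex (0.198-fold, 0.0637 to 0.469), and none once cells with non-neural markers were left out. The keratin Krt1 came out 11.3-fold higher, from 244 molecules in 1 cell.

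Fewer genes stood out at equal depth in the tail. With Sox1 and all molecules taken from cells thinned to 400, 69 cells held Sox1, and 19 of 3031 genes were higher beyond 2-fold, all 19 among the 140. Pkd2l1 was 6.80-fold (3.82 to 11.5) and Chga 9.48-fold (4.89 to 17.4). Sox11 at 1.73-fold (1.20 to 2.42) and Dcx at 2.08-fold (1.12 to 3.58) no longer lay beyond 2-fold. Of the cerebrospinal fluid-contacting and V2 interneuron genes, only Pkd2l1 still had at least 50 molecules, so the others were not measured at equal depth. Gata2, under that minimum and not among the 3031 genes, stood at 8.0-fold (3.52 to 16.6). Within the 67 Stmn2-marked tail cells, Pkd2l1 was found in 27 of 31 Sox1-detected and 18 of 36 other cells, and Clic5 in 17 and 4. Within the 1260 Igfbp5-marked tail cells, Chga was found in 14 of 99 Sox1-detected and 8 of 1161 other cells. These splits by mark were chosen after the data were seen.

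Among the 10 brain genes that led were Gsx1, Uhrf1, Cdc6, Gm29260, Cdt1, Mcm5, Birc5, Ube2c and Pclaf. Gsx1, a homeobox factor of neural progenitors, was at 46.7 CPM in Sox1-detected and 6.45 in other brain cells (7.25-fold, 4.37 to 12), from 23 and 25 cells. Uhrf1, which maintains DNA methylation through replication, was at 105 against 18.8 CPM (5.59-fold, 4.09 to 7.60). Of 8 cycling genes 7 were higher beyond 2-fold, with a median ratio of 3.13 against 1.106 over all genes.

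Depth moved with these brain genes: cells with Sox1 had a median of 832 molecules and cells without 686, Top2a-marked brain cells had a median of 1570 molecules and all kept brain cells 696. With everything thinned to 400 molecules, 314 brain cells held Sox1 in place of 675, and fewer cells widen the intervals. Depth and the number of cells were not told apart. At this depth, 6 of 7378 genes were higher beyond 2-fold, 1 of them among the 93. None of 7 measured cycling genes was, at a median ratio of 1.73 against 1.05 over all genes. Ube2c then stood at 1.13-fold (0.447 to 2.40), while Uhrf1 stood at 4.32-fold (1.75 to 9.34), Mcm5 at 2.98-fold (1.30 to 5.99) and Cdt1 at 7.38-fold (2.40 to 19.4).

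**Figure D4:**
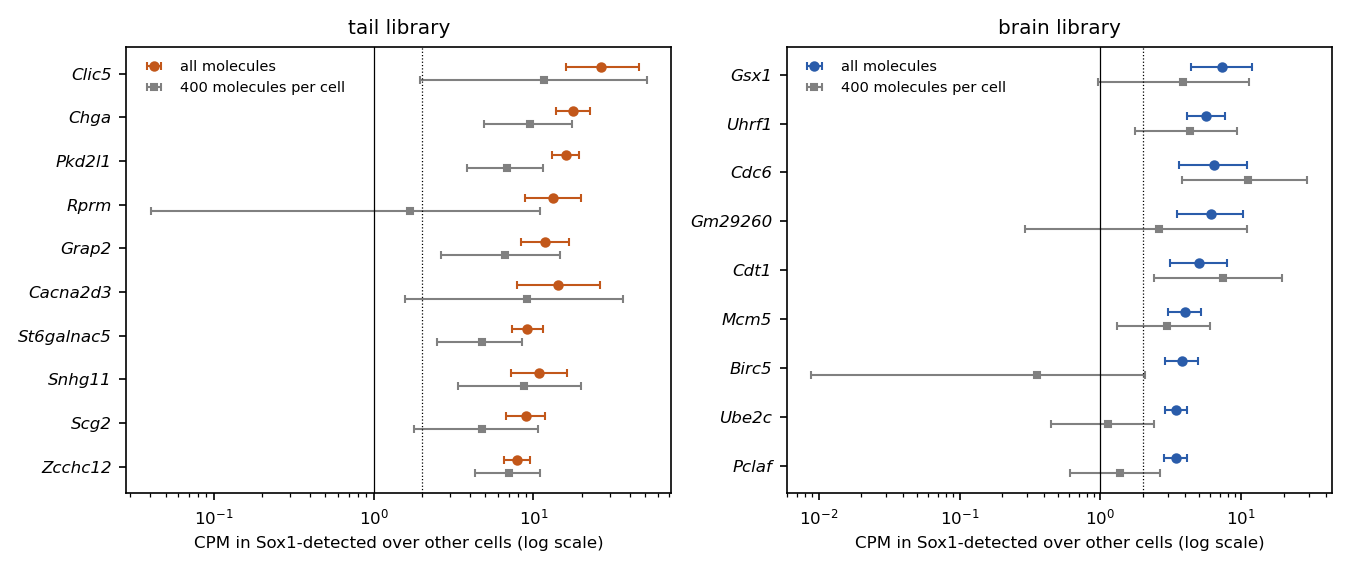
Ratio of molecules as CPM in Sox1-detected over other cells, on a log axis, for 10 leading genes of the tail (left) and 9 of the brain (right) library, from all molecules (colour) and after thinning each cell to 400 molecules (grey), with 95% counting intervals; lines mark 1 and 2. Pkd2l1 in the tail stood at 15.9 and 6.80, and Uhrf1 in the brain at 5.59 and 4.32.

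The other lists in the brain stood on both sides of 1. All 12 GABAergic neuroblast genes had a ratio above 1, at a median of 1.51 (1.83 over 11 genes after thinning), and none lay beyond 2-fold. Dlx1 and Dlx2, homeobox factors of GABAergic neuroblasts, were at 1.74-fold (1.60 to 1.90) and 1.97-fold (1.71 to 2.26). All 12 astroglial genes had a ratio below 1, at a median of 0.586, with the glutamate transporter Slc1a2 at 3545 against 6343 CPM. Of 6 Bergmann glia genes 2 were higher beyond 2-fold, Gdf10 (2.58-fold, 2.31 to 2.88), a growth factor, and Gria4 (2.68-fold, 2.23 to 3.2), a glutamate receptor subunit, and after thinning Gdf10 stood at 2.04-fold (1.5 to 2.71). Within the 4891 Slc1a3-marked brain cells, Gdf10 was found in 76 of 333 Sox1-detected and 433 of 4558 other cells. Lower beyond 2-fold were 3 of 6 oligodendrocyte lineage genes, Mag (1 and 336 molecules), Mog (0 and 97) and Cldn11 (1 and 676), and 6 of 7 macrophage markers. Kcnc4, a potassium channel, Hdhd5, Oaf and Neat1, a noncoding RNA of nuclear paraspeckles, were also lower beyond 2-fold.

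Most members of the remaining lists did not lie beyond 2-fold in Sox1-detected cells, which does not mean equal levels. In the tail the median ratio was 0.124 for oligodendrocyte lineage, 0.337 for Schwann and neural crest and 0.663 for astroglial genes. It was 0.688 for Bergmann glia and 1.43 for ependymal genes. In the brain it was 0.234 for Schwann and neural crest, 0.561 for fibroblast, 1.04 for other Sox and 1.496 for ependymal genes. In the tail, no member of the lists of astroglial, Bergmann glia, ependymal, or Schwann and neural crest genes lay beyond 2-fold, out of 6, 4, 8 and 1 measured. Of 4 oligodendrocyte lineage genes 1 was lower (Pdgfra, 0 and 124 molecules). Without cells with non-neural markers, none of the 2 oligodendrocyte lineage genes still measured lay beyond 2-fold. In the brain, the 15 measured partner and progenitor genes had a median ratio of 1.13, and none of 9 other Sox genes, 5 ependymal genes, 2 Schwann and neural crest genes or 2 fibroblast markers lay beyond 2-fold. Of the keratinocyte markers, 2 of 9 were higher and 2 lower in the tail, and of 2 endothelial markers 1 was higher (Kdr, 23 molecules in 14 cells).

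Cells that held the genes named above were also asked which SoxB genes they carried, a choice of genes made after their values were seen. Genes picked for a high level in Sox1-detected cells must show a raised Sox1 level here, so the Sox1 values restate that contrast from the other side. Among 69 tail cells with at least 2 molecules of Pkd2l1, 40 held Sox1 (58.0%, 45.5 to 69.8) and 32 held Sox2 (46.4%, 34.3 to 58.8), while Sox3 and Sox21 were found in 2 each. Sox1 was at 459 CPM in them and 65.5 in the other tail cells (7.0-fold, 5.13 to 9.43), Sox2 at 413 and 340 CPM (1.21-fold, 0.904 to 1.60), and Sox21 at 15.3 and 80.04 CPM (0.191-fold, 0.0230 to 0.698). Of the 69, 42 were Stmn2-marked and none Slc1a3-marked. Sox14 was 24.4-fold as high in the 187 Dcx-holding tail cells as in the rest (11.6 to 56.1), from 29 molecules in 20 cells.

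Cells that held the young-neuron gene Dcx had a raised Sox1 level in both libraries, which restates the higher Dcx level of Sox1-detected cells. In the 187 such tail cells Sox1 was 4.31-fold (3.25 to 5.68) and Sox2 0.526-fold (0.395 to 0.688) as high as in the other tail cells. In 628 such brain cells Sox1 was 1.68-fold (1.36 to 2.07) and Sox2 1.17-fold (1.04 to 1.32). Sox21 was lower in both, at 0.492-fold (0.250 to 0.879) in the tail and 0.453-fold (0.270 to 0.717) in the brain. In 126 brain cells that held Mki67, a marker of dividing cells, Sox3 was 3.39-fold as high as in the rest (1.31 to 7.46), from 7 molecules in 5 cells. Among brain cells that held Dlx1 (940 cells), Sox1 was at 209 CPM against 102 (2.04-fold, 1.72 to 2.42) and Sox21 at 40.8 against 74.3 (0.549-fold, 0.379 to 0.773). Of 285 Gdf10-holding brain cells, 57 held Sox1 (20%, 15.5 to 25.1) and 143 held Sox2.

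**Figure D5:**
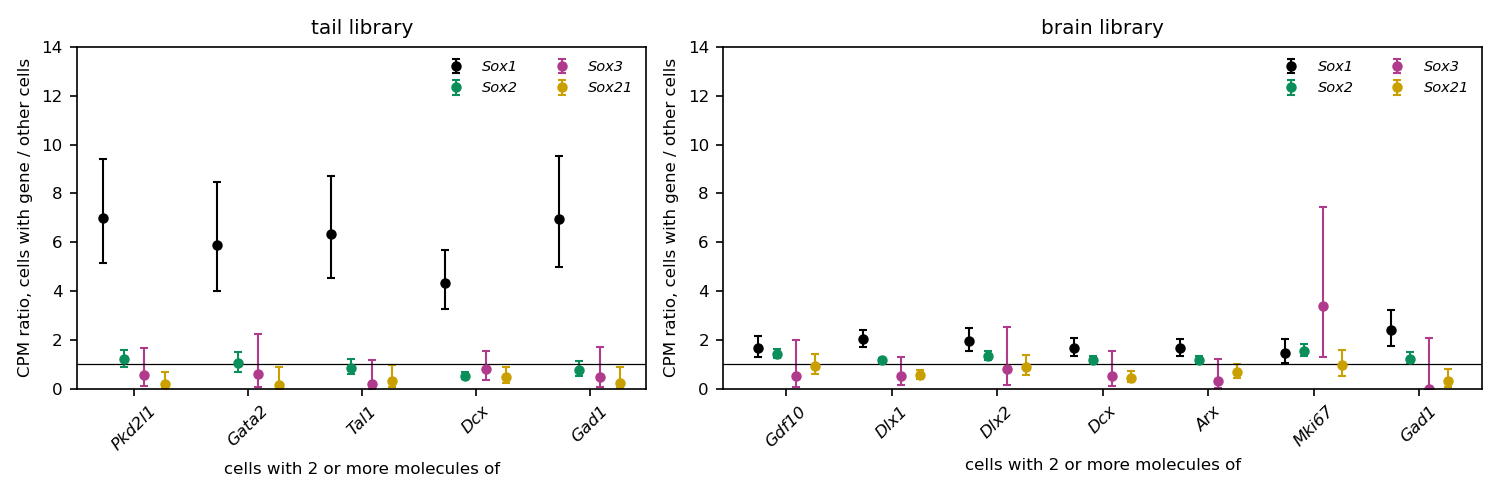
Ratio of molecules as CPM of Sox1 (black), Sox2 (green), Sox3 (purple) and Sox21 (yellow) in cells with at least 2 molecules of the named gene over all other cells of the same library, with 95% counting intervals and a line at 1. The genes were chosen after their values were seen, so the Sox1 values restate the contrast of Sox1-detected cells. In the tail, Sox1 stood at 7.0 in Pkd2l1-holding and 4.31 in Dcx-holding cells. In the brain, Sox3 stood at 3.39 in Mki67-holding cells.

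The genes that led in cells with the other members were in part those of Sox1: Pkd2l1 (Sox2, tail) and Cdt1 (Sox21, brain) also led for Sox1 in the same library. Over all genes, 0.085% were higher beyond 2-fold in tail cells with Sox2 and 0.0607% in those with Sox21, and 0.591% and 0.051% in brain cells with Sox3 and with Sox21. In brain cells with Sox2 and with Sox3, 0.234% and 0.0815% were lower. In tail cells with Sox2, the leading genes were Nr4a3, an early response nuclear receptor (3.35-fold, 2.29 to 4.94), the glial lipid carrier Fabp7 (2.37-fold, 2.16 to 2.60), Slc1a3 (2.38-fold, 2.15 to 2.62), the endothelin receptor Ednrb (2.37-fold, 2.05 to 2.75) and Pkd2l1 (2.46-fold, 2.05 to 2.97). In brain cells with Sox2 they were the dividing-cell genes Kif18b, Cdk1, Ccna2, Top2a and Rad51ap1, at 3.56- to 6.01-fold, and 6 of 8 cycling genes were higher beyond 2-fold, as were 0.581% of the 9810 genes. In tail cells with Sox21 they were the glial genes Aldoc (3.68-fold, 2.64 to 5.06), Hopx (3.09-fold, 2.23 to 4.22) and Fabp7 (2.28-fold, 2.02 to 2.55), with Fam181a and the ligand Wnt7a. In brain cells with Sox21 they were Xrcc4, Dll3, Cdt1, Sugct and Ncaph, at 3.55- to 4.53-fold, and 4 of 12 GABAergic neuroblast genes were lower beyond 2-fold, as were 0.591% of all genes. In the tail all 6 fibroblast markers were lower beyond 2-fold in cells with Sox2, with Sox3 and with Sox21, where 2.59%, 0.789% and 1.18% of the 8235 genes were. None of these ratios was thinned. Cells with Sox2 were deeper, at a median of 851.5 against 653 molecules in the brain and 1330 against 1255 in the tail.

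In tail cells with Sox3, the 5 leading genes included genes known from motile cilia. Lrrc23, a protein of the ciliary radial spoke, was at 377 against 65.2 CPM (5.79-fold, 4.26 to 7.78). Deup1, which builds centrioles in multiciliated cells, was at 262 against 59.2 CPM (4.42-fold, 3.08 to 6.23). The others were 1700012B09Rik, which is on the ependymal list, 4833427G06Rik and Sord. Of 8 ependymal genes 3 were higher beyond 2-fold, as were 0.571% of all genes. Only 3 of the 99 tail cells with Sox3 were Tmem212-marked, and Sox3 in Tmem212-marked tail cells was at 1.498-fold the level of the rest (0.401 to 3.95). In the 60 brain cells with Sox3, Top2a was at 583 against 133 CPM (4.37-fold, 3.18 to 5.89), beside Ccna2, Selenoh and H2afz, while Stmn2 had 1 molecule. These contrasts were not thinned, and cells with Sox3 were deeper in both libraries (1542 against 1278 and 1081 against 694 molecules, medians).

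Over the 12 groups of marked and unmarked cells in both libraries, the genes whose log2(CPM + 20) was most like that of Sox1 were Rab5b (Pearson's r 0.969), Neurl4 (0.948), Map2 (0.915), Gdap1l1 (0.911) and Zyg11b (0.909), among 7073 genes. For Sox2 they were Mob3b (0.759), Igsf11, Wbp2, Ccdc127 and Zbtb20, for Sox3 Smim27 (0.923), Gjc1, Tex9, Aebp2 and Emp1, and for Sox21 Llgl1 (0.844), Notch1 (0.827), Wdr11, Spaca6 and Hadha. Between members r was 0.336 for Sox1 and Sox2, 0.307 for Sox2 and Sox21, 0.373 for Sox3 and Sox21, -0.637 for Sox1 and Sox3, -0.279 for Sox2 and Sox3 and -0.0775 for Sox1 and Sox21. The groups share cells and libraries, so these values are a description.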

How the data were processed

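RNA of single Sox1-GFP+ cells from mouse tail and mouse brain was measured in 1 BD Rhapsody library each. The deposited molecule counts were made by the authors with the BD Rhapsody WTA pipeline on GRCm38 with a GENCODE annotation, per the file headers; the error-corrected molecules per cell and gene were used, and PCR copies of a molecule count once. A cell was kept if it had over 200 but under 4000 genes and less than 40% of its molecules from mitochondrial genes (2817103 tail and 6424466 brain molecules). Levels are CPM, from molecules summed over cells. Intervals are 95% and exact: Poisson for CPM, Clopper-Pearson for shares, conditional binomial for ratios. They cover counting error only. With 1 library per tissue no test was made. A gene was called when its whole interval lay beyond 2-fold, with at least 50 molecules and mitochondrial genes left out; a ratio against 0 used 3 molecules. Cells were marked by 2 molecules of a gene, and non-neural cells by 3 markers with 2 molecules each. Scrublet in scanpy 1.11.5 marked 7 tail cells (0.356%) and 67 brain cells (0.839%) as doublets, which stayed in; both shares are so low, the brain one over 7988 cells, that undetected doublets may remain. TMM factors came from edgeR 4.0.16 in R 4.3.3; the rest used Python 3.11.15, numpy 2.4.6 and scipy 1.17.1. The scripts were tested on simulated data.

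The text names the 10 genes with the largest and the 5 with the smallest ratio in Sox1-detected cells of each library, ranked by the interval bound nearer to 1 and found in at least 10 Sox1-detected cells or at least 100 other cells, the 5 largest for the other members, the 5 most alike over the marked groups, and list members 2-fold apart with up to 4 others. Some genes that met this rule are not reported here. The members and the 15 gene lists were chosen with earlier results of these data known. The alternatives were other scales, thresholds and cell filters. Leaving out cells with non-neural markers from the marked groups and gene contrasts, leaving out shared barcodes and thinning the gene contrasts were chosen after seeing the data.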

Additional observations from a re-analysis of the deposited data

Results flagged for a closer look

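Sox1 in Top2a-marked over other cells was 0.0801 in the tail and 1.77 in the brain, and Sox2 was 0.720 in the tail and 1.63 in the brain, in opposite directions in the libraries. The difference was not tested, since each tissue has 1 library. The tail Sox1 value rests on 2 molecules. Without cells with non-neural markers the tail Sox2 ratio was 1.06 (0.817 to 1.36), so its opposite direction did not hold there.

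Barcodes outside the cell filters (505 in the tail, 4123 in the brain) also held these genes above the level of 3 molecules, which is 19.3 CPM in the tail and 2.89 in the brain. Sox2 was at 57.9 CPM and Sox21 at 25.7 CPM in the tail barcodes. In the brain barcodes Sox1 was at 18.3 CPM, Sox2 at 126 and Sox21 at 21.2.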

How the results depend on the processing

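No paired analysis was possible because each tissue has 1 library and no test was made. Of 36 tail over brain ratios under alternatives, 25 stayed within the reported interval, as did 37 of 48 thinned shares, 216 of 240 marked ratios and 77 of 96 co-detection shares; 17 of 32 gene counts stayed within 1.5 times. The cause of the other changes was not tested, except that fewer genes or cells enter under a higher minimum, after thinning and in cells with 1 mark. The tail over brain ratio was 0.549 for Sox1, 0.557 for Sox2 and 0.846 for Sox21 with TMM, 0.557, 0.564 and 0.857 with median-ratio scaling, and 0.893, 0.910 and 1.35 without non-neural cells; the mean of per-cell shares gave 0.832 for Sox2 and 1.34 for Sox21. At 800 molecules per cell Sox1, Sox2, Sox3 and Sox21 were found in 5.96%, 23.1%, 3.04% and 6.38% of tail and 7.62%, 30.8%, 0.762% and 5.997% of brain cells. Tail shares without non-neural cells were 4.54% for Sox1 and 15.7% for Sox2, and Sox2 was at 15.4% under 20% mitochondrial molecules. With 1 molecule as the mark, tail ratios were 0.649 for Sox2 by Stmn2 and 0.630 for Sox1 and 2.44 for Sox2 by Slc1a3, and brain Sox2 by Stmn2 was 1.22; with 3 molecules brain Stmn2 gave 1.67 for Sox2 and 0.149 for Sox21. In cells with exactly 1 mark, tail Slc1a3 gave 0 for Sox1 and Sox3 and, in the other direction, 0.939 for Sox2, tail Igfbp5 1.51 for Sox2 and 1.49 for Sox21, and tail Top2a 0.130 for Sox2; brain Sox2 was 1.15 by Igfbp5, 0.830 by Tmem212 and 1.35 by Top2a, and brain Sox21 by Igfbp5 0.459. Without non-neural cells tail Sox2 was 1.64 by Slc1a3, 2.38 by Igfbp5 and, in the other direction, 1.06 by Top2a, and Sox1 by Igfbp5 0.450. Unthinned, Sox2 was found in 38.0% of tail and 35.3% of brain cells with Sox1. Genes higher in Sox1-detected tail cells numbered 60 at 200 molecules, 256 with no minimum and 19 thinned; lower ones 68 with 2 Sox1 molecules, 63 at 200, 19 without non-neural cells and 8 thinned. In the brain 41 were higher at 200, 52 with median-ratio scaling and 6 thinned; lower ones were 60 with 2 Sox1 molecules, 15 at 200, 53 with median-ratio scaling, 19 without non-neural cells and 3 thinned.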
